A study of Homo sapiens with 4 samples.

Results

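The integrated stress response is a programme in which cells under stress slow protein synthesis and raise a set of rescue genes. H3K27ac, acetylation of histone H3 that marks promoters and enhancers in use, was examined at 10 of its targets: ATF4, ATF3, ATF5, DDIT3, DDIT4, TRIB3, CHAC1, SESN2, ASNS and PSAT1. They were taken as a named list, 10 of 20175 protein-coding genes in the annotation, and each was read from its gene body with 10 kb on each side. Those windows held 19 peaks in the hairpin 1 list of 23819, 18 in the hairpin 2 list of 27007 and 19 in the control list of 23413. The peaks came from ChIP-seq of K562, a human erythroleukaemia line. The cells were transduced with TFAM hairpin 1, with TFAM hairpin 2 or, as the control, with a non-targeting shRNA. TFAM packages mitochondrial DNA and drives its transcription, and the series asked how raised histone acetylation in TFAM-deficient erythroid cells acts across the genome. Each condition was 1 library with 1 peak list and no replicate, so no p-value or spread between replicates is given, and the difference between the hairpins is the only gauge of how far libraries with the same target can part. The lists carry neither read depth nor a measure of the knockdown, and an input library was not analysed here. K562 is a tumour line, so primary erythroid cells were not examined. Positions are on GRCh37 (hg19).

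The labelled cell type was checked on fixed markers. Of 12 erythroid leukaemia markers, a promoter peak was listed for 6 in hairpin 1, 5 in hairpin 2 and 6 in the control. GATA1, GATA2, NFE2, HBE1, HBG1 and HBG2 had none in any list, although 11 of the 12 had a peak in or near the gene in some list. Of 10 markers of other cells (T and B cells, liver, fibroblasts, epithelium), 3, 2 and 1 had a promoter peak in hairpin 1, hairpin 2 and the control. A peak in or near the gene in some list was found for 7 of these 10. Over all coding genes a promoter peak was listed for 54.7%, 54.9% and 53.7% in hairpin 1, hairpin 2 and the control. The erythroid markers did not exceed these shares, so the markers tell little about cell type. The hairpin 2 list is the longest, which touches each comparison that uses it, and the comparisons of covered sequence were repeated on lists trimmed to the same length.

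Phosphorylation of the initiation factor eIF2 is the trigger of the response. It lowers translation in general but favours the mRNAs of ATF4 and ATF5, and ATF4 then binds C/EBP-ATF response elements in its target genes together with C/EBP partners. In cells with mitochondrial damage the signal can pass from the protease OMA1 through DELE1 to the eIF2 kinase HRI, the product of EIF2AK1, which in red cell precursors also senses a lack of heme. ATF4 is thus set largely at the level of translation.

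The core of the C/EBP-ATF response element, TGATGNAA, was searched on both strands of the GRCh37 sequence from 250 bases before to 50 after each start site, to show where the peaks lie relative to the letters that ATF4 recognises. It was found in 3 of the 10 targets (ATF3, CHAC1 and ASNS), in 10 of 50 other pathway genes and in 2.49% of all 20175 such promoters. From 500 bases before to 100 after the start site it was found in 5 of the 10, DDIT3 and SESN2 being added, and in 5.24% of all promoters. The cyclic AMP response element TGACGTCA was found in 0 of the 10, 1 of the 50 and 2.68% of all promoters in the smaller window. A match describes the letters and shows no binding. The stretches below carry the matches, 5′ to 3′ on the strand of the gene, with each match or its reverse complement in capitals.
ATF3, chr1:212781803-212782102, plus strand, the 300 bases before the start site: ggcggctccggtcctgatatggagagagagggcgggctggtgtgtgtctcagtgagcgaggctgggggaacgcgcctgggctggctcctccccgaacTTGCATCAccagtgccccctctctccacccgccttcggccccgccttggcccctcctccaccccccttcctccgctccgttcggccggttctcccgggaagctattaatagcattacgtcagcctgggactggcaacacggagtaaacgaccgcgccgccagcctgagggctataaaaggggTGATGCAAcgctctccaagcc
SESN2, chr1:28585679-28585978, plus strand, from 350 to 51 bases before the start site: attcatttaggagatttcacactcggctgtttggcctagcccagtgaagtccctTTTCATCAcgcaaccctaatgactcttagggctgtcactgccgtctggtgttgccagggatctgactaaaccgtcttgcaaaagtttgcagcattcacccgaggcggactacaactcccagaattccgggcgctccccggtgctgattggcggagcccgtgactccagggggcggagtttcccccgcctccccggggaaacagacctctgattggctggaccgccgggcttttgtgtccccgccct
DDIT3, chr12:57914528-57914647, minus strand, from 350 to 231 bases before the start site: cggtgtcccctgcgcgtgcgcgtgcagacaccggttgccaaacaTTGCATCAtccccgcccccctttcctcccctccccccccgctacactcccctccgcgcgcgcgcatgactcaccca
CHAC1, chr15:41245449-41245478, plus strand, from 220 to 191 bases before the start site: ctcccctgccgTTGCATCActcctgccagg
ASNS, chr7:97501770-97501799, minus strand, from 79 to 50 bases before the start site: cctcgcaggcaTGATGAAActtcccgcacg

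All 10 targets had a peak within 1 kb of the start site in the hairpin 1, hairpin 2 and control lists. Over all coding genes such a promoter peak was listed for 54.7% in hairpin 1, 54.9% in hairpin 2 and 53.7% in the control, and for 50.4% in every list. A stricter rule asked for an overlap of 50% of the shorter of peak and promoter. It left 9 targets in hairpin 1, 9 in hairpin 2 and 10 in the control, DDIT3 falling short in both hairpins. Among the higher-scoring 50% of each list the counts were 9, 9 and 8 in the same order. With the full lists and a minimum overlap of 1 bp, no target gained or lost its promoter peak. What differed between libraries was the extent of the peaks, and it differed in both directions: 5 targets had a narrower promoter peak in both hairpins than in the control (ATF3, DDIT3, TRIB3, CHAC1 and ASNS), 2 a wider one in both (ATF4 and ATF5), and 3 were split between the hairpins (DDIT4, SESN2 and PSAT1). Among the 10159 coding genes with a promoter peak in every list, 22.8% were narrower in both hairpins and 45.0% wider in both.

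**Figure D1:**
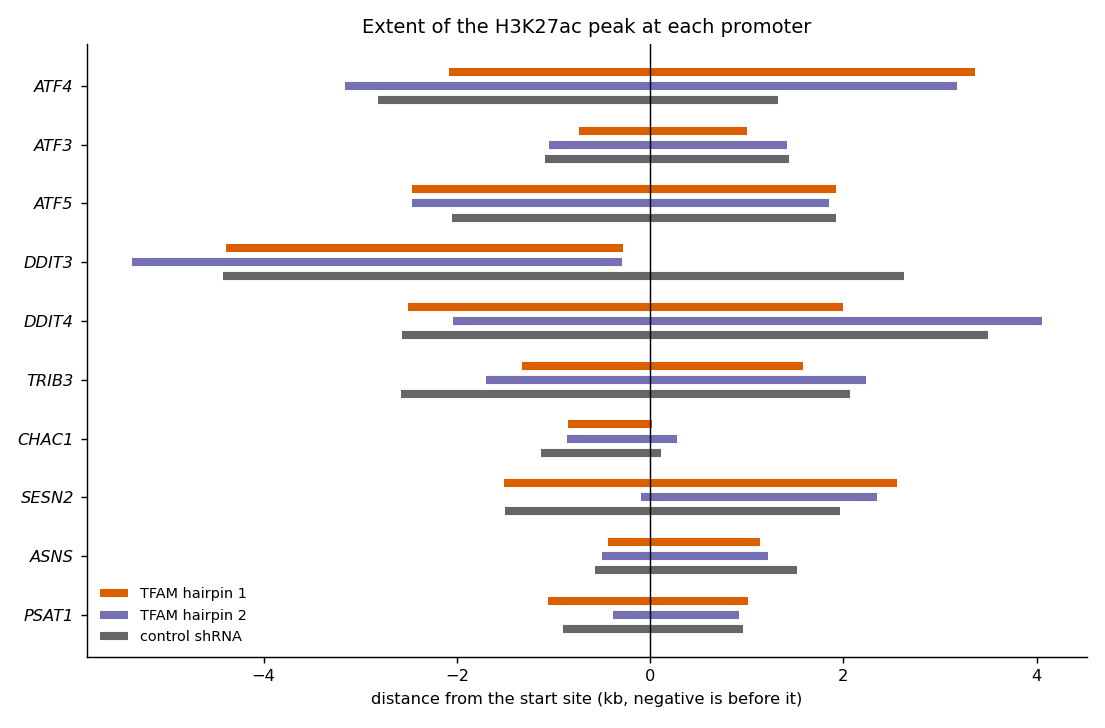
Extent of the promoter H3K27ac peak of each gene as distance from its start site in kb along the direction of transcription, with 1 bar per library (hairpin 1, hairpin 2 and control from top to bottom). The peak of DDIT3 crosses the start site in the control alone, and that of ATF4 reaches farther downstream of the start site in both hairpins.

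By promoter peak width, the median log2 ratio of the 10 targets was -0.42 for hairpin 1 over control and -0.18 for hairpin 2 over control. The same median over all 10159 genes was 0.04 for hairpin 1 and 0.11 for hairpin 2. The targets' peaks were wide in the control list, with a median width percentile of 81.3 among its promoter peaks. It was 73.6 in hairpin 1 and 62.0 in hairpin 2. The genes compared were not matched for control width, and its part in the lower median was not tested. The range over the targets, -0.78 to 0.39 in hairpin 1 and -0.52 to 0.61 in hairpin 2, took in both signs. A width changed by 1.5-fold or more was called. In hairpin 1, 2 targets (DDIT3 and TRIB3) were called narrower and 0 wider, against 4.61% and 8.17% of all genes. In hairpin 2, 0 were called narrower and 1 (ATF4) wider, against 2.72% and 11.1%. By shared base pairs, the median Jaccard index of the targets' promoter peaks was 75.5% between hairpin 1 and hairpin 2, 72.4% between hairpin 1 and control and 74.0% between hairpin 2 and control. All genes gave 83.2%, 83.2% and 82.7%, and the targets' median was the lower one in every pair of libraries, the hairpin pair included.

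Among the transcription factors, ATF4 and ATF5 had wider promoter peaks in both hairpins and ATF3 and DDIT3 narrower ones. ATF4, the factor that carries the response to its target genes, lies on chromosome 22 at 39915700 to 39918688 (plus strand). Its promoter peak spanned 5448 bp in hairpin 1 and 6327 bp in hairpin 2, against 4146 bp in the control, the widening being 1.31-fold and 1.53-fold. The peak reached 3367 bp past the start site in hairpin 1 and 3172 bp in hairpin 2, against 1325 bp in the control. It ended past the 3′ end of the gene in the hairpins, at 39919934 and 39919739, and inside the gene in the control, at 39917892. Before the start site it reached 2080 bp in hairpin 1 and 3154 bp in hairpin 2, against 2820 bp in the control. The percentile of its score, which is the share of peaks in the same list with a lower score from the authors, was 70.9 in hairpin 1 and 70.1 in hairpin 2, against 84.8 in the control. Ranks in lists of different length are given as descriptions and show no change in signal.

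ATF5, a factor related to ATF4 and tied to mitochondrial stress in mammals, had the most even promoter peak of the 10. At chromosome 19, 50431959 to 50437192 (plus strand), the peak spanned 4391 bp in hairpin 1 and 4313 bp in hairpin 2, against 3976 bp in the control. It ranked highest of the 10 in every list, at score percentile 92.7, 92.1 and 97.0 in hairpin 1, hairpin 2 and control. The start site of NUP62, a nuclear pore gene on the opposite strand, lies 299 bp away, so this peak is shared by both promoters and cannot be assigned to either.

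ATF3, a stress-induced factor that modifies the output of the response, had the opposite direction. The gene lies on chromosome 1 at 212738676 to 212794119 (plus strand). Its promoter peak spanned 1742 bp in hairpin 1 and 2465 bp in hairpin 2, against 2531 bp in the control. Hairpin 1 was 1.45-fold narrower than the control and hairpin 2 1.03-fold. The score percentile was 56.3 in hairpin 1 and 59.7 in hairpin 2, against 83.0 in the control. Both TGATGNAA matches of the ATF3 stretch, 203 and 21 bases before the start site, lay under the peak in every list, at least 535 bases from its edge.

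DDIT3, the death-promoting factor CHOP, lies on the minus strand of chromosome 12 at 57910371 to 57915520 and was the target whose start site differed. The control peak ran from 57911670 to 57918721 over 7052 bp and covered the start site at 57914297 with most of the gene. The hairpin 1 peak (57914581 to 57918688, 4108 bp) and the hairpin 2 peak (57914593 to 57919658, 5066 bp) began 284 and 296 bases before the start site and left the canonical transcript uncovered. From 250 bases before to 50 after the start site, 0 of 300 bases were under a peak in hairpin 1 and 0 in hairpin 2, against 300 in the control. This pattern, chosen after its values were seen, was found in 1.18% of the 9875 genes whose start-site window was whole in the control list, while 89.3% were whole in both hairpins as well. The TGATGNAA match of DDIT3, 306 bases before the start site, fell just inside the hairpin peaks, 15 bases from the edge in hairpin 1 and 3 in hairpin 2, against 2926 in the control. What the hairpin peaks cover is the upstream side, where the start site of the neighbour MBD6, a methyl-CpG-binding domain gene, lies 2310 bp away and was under a peak in every list. The farthest annotated DDIT3 start site, at 57915520, was also under a peak in every list. The score percentile of the peak was 70.4 in hairpin 1 and 50.4 in hairpin 2, against 59.8 in the control. Peak borders depend on depth and on the caller's settings, neither of which is given in the sources used here, and the part of either in this border was not tested.

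DDIT4 and SESN2 encode inhibitors of mTORC1, the kinase complex that drives growth. DDIT4 (REDD1) lies on chromosome 10 at 74033678 to 74035794 (plus strand), and its promoter peak spanned 4504 bp in hairpin 1 and 6097 bp in hairpin 2, against 6066 bp in the control. Hairpin 2 and the control thus had like widths and hairpin 1 was narrower. The peak covered the whole short gene in hairpin 2 and in the control, reaching 4055 and 3501 bp past the start site, against 1995 bp in hairpin 1. Its score percentile was 53.7 in hairpin 1 and 59.7 in hairpin 2, against 41.6 in the control, the lowest rank of the 10 in the control list.

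SESN2 (sestrin 2, a leucine sensor) split the hairpins. It lies on chromosome 1 at 28586029 to 28609002 (plus strand). Its promoter peak spanned 4073 bp in hairpin 1 and 2439 bp in hairpin 2, against 3461 bp in the control. In hairpin 2 the peak began 92 bp before the start site, against 1517 bp in hairpin 1 and 1499 bp in the control. The TGATGNAA match 296 bases before the start site was therefore outside any peak in hairpin 2 and under one in hairpin 1 and in the control. Of the 300 bases around the start site, 300 were covered in hairpin 1, 142 in hairpin 2 and 300 in the control. The score percentile was 63.6 in hairpin 1 and 83.0 in hairpin 2, against 68.7 in the control.

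TRIB3, a pseudokinase that binds ATF4 and AKT and damps the response, lies on chromosome 20 at 343479 to 378203 (plus strand). Its promoter peak spanned 2912 bp in hairpin 1 and 3926 bp in hairpin 2, against 4653 bp in the control. Before the start site the peak extended 1325 bp in hairpin 1 and 1696 bp in hairpin 2, against 2579 bp in the control. Past it the peak extended 1586 bp in hairpin 1 and 2229 bp in hairpin 2, against 2073 bp in the control, so hairpin 1 was shorter on both sides and hairpin 2 on the upstream side. The score percentile was 85.9 in hairpin 1 and 81.9 in hairpin 2, against 70.1 in the control, so the narrower hairpin peaks stood at the higher percentiles.

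The 3 metabolic targets had the narrowest promoter peaks in hairpin 2 and in the control, while in hairpin 1 ATF3 was narrower than PSAT1. CHAC1, an enzyme that breaks down glutathione (chromosome 15, 41245160 to 41248710, plus strand), had 876 bp in hairpin 1 and 1140 bp in hairpin 2, against 1240 bp in the control, the narrowest promoter peak of the 10 in every list. Its peak lay mostly before the start site, ending 24, 274 and 111 bp past it in hairpin 1, hairpin 2 and control, and held the TGATGNAA match of the CHAC1 stretch in every list. ASNS, asparagine synthetase (chromosome 7, 97480989 to 97501854, minus strand), had 1570 bp in hairpin 1 and 1720 bp in hairpin 2, against 2088 bp in the control. The match of the ASNS stretch, 68 bases before the start site, was at least 366 bases inside the peak in every list. PSAT1, an aminotransferase of serine synthesis (chromosome 9, 80912041 to 80945009, plus strand), had 2070 bp in hairpin 1 and 1302 bp in hairpin 2, against 1868 bp in the control. CHAC1 and ASNS were narrower in both hairpins by less than 1.5-fold, and PSAT1 differed from the control in opposite directions.

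**Figure D2:**
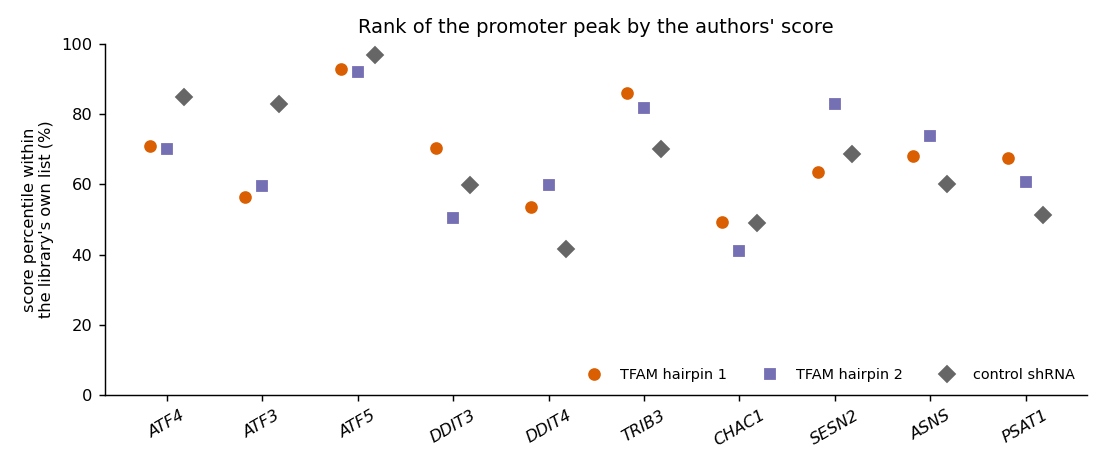
Score percentile of the promoter peak within its own list, in percent, for each gene, with 1 symbol per library (hairpin 1, hairpin 2 and control from left to right). ATF5 is highest in every list. ATF4, ATF3 and ATF5 stand lower in both hairpin lists than in the control list, DDIT4, TRIB3, ASNS and PSAT1 higher in both, and DDIT3, CHAC1 and SESN2 split.

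The second comparison took all peaks in the windows. The 10 windows held 50131 bp of covered sequence in hairpin 1 and 59705 bp in hairpin 2, against 53691 bp in the control. The median log2 ratio of the targets was -0.24 for hairpin 1 over control and -0.06 for hairpin 2 over control, against 0.09 and 0.19 over all coding genes with a ratio. For hairpin 2 over hairpin 1 it was 0.28, against 0.10 over all genes. A gene was called higher or lower at 1.5-fold or more, or when 1 list had no covered sequence. In hairpin 1, 0 of the 10 targets were called higher and 1 (DDIT3) lower, against 18.4% and 12.7% of the 14751 genes with sequence covered in either list. In hairpin 2, 1 (SESN2) was called higher and 0 lower, against 25.4% and 7.78% of 14995 genes. With these full lists no target was called in the same direction in both hairpins, against 9.58% of genes called higher and 3.63% called lower in both. Between the hairpins, 0 of the 10 were called in either direction, against 21.6% of genes called higher and 10.9% called lower in hairpin 2 over hairpin 1. All 10 targets had covered sequence in every list, so none could be called through an absent list. The shares of all genes include genes called that way, since 13511 of the 14751 had a ratio in hairpin 1 and 13774 of the 14995 in hairpin 2. The sets are thus not alike. The same control library enters both hairpin ratios.

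**Figure D3:**
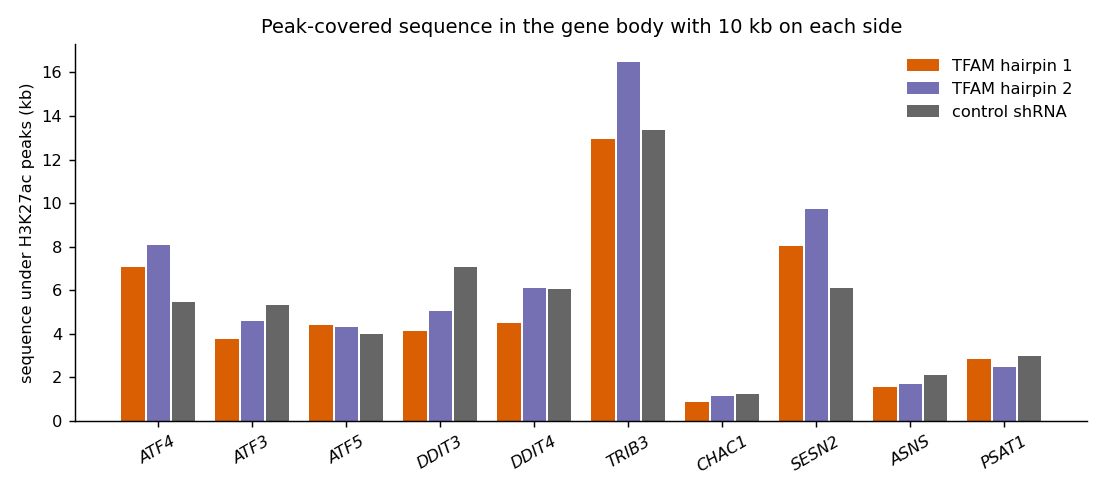
Sequence under H3K27ac peaks in kb for each gene body with 10 kb on each side, with 1 bar per library (hairpin 1, hairpin 2 and control from left to right). The TRIB3 window has the most covered sequence in every library and CHAC1 the least, and no gene has a bar of 0.

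DDIT3 had 4108 bp covered in hairpin 1 and 5066 bp in hairpin 2, against 7052 bp in the control, log2 ratios of -0.78 and -0.48. Of all genes with a ratio, 5.77% were lower than DDIT3 in hairpin 1 and 7.37% in hairpin 2. With 25 kb on each side the log2 ratio was -0.40 in hairpin 1, short of the threshold, and 0.13 in hairpin 2, the other sign. SESN2 had 8051 bp in hairpin 1 and 9734 bp in hairpin 2, against 6121 bp in the control, log2 ratios of 0.40 and 0.67. Its call in hairpin 2 turned to -0.78 among the higher-scoring 50% of each list. ATF4 came close to the threshold in hairpin 2, with 7077 bp in hairpin 1 and 8092 bp in hairpin 2, against 5483 bp in the control, ratios of 1.29 and 1.48. Both genes had more covered sequence in either hairpin than in the control. Of all genes with a ratio, 73.6% were lower than ATF4 in hairpin 1 and 77.3% in hairpin 2. ATF3 had 3766 bp in hairpin 1 and 4587 bp in hairpin 2, against 5331 bp in the control. TRIB3 had 12954 bp in hairpin 1 and 16483 bp in hairpin 2, against 13365 bp in the control. The values of ATF5, DDIT4, CHAC1 and ASNS are those of their promoter peaks, the only peaks in their windows, and the same holds for DDIT3.

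**Figure D4:**
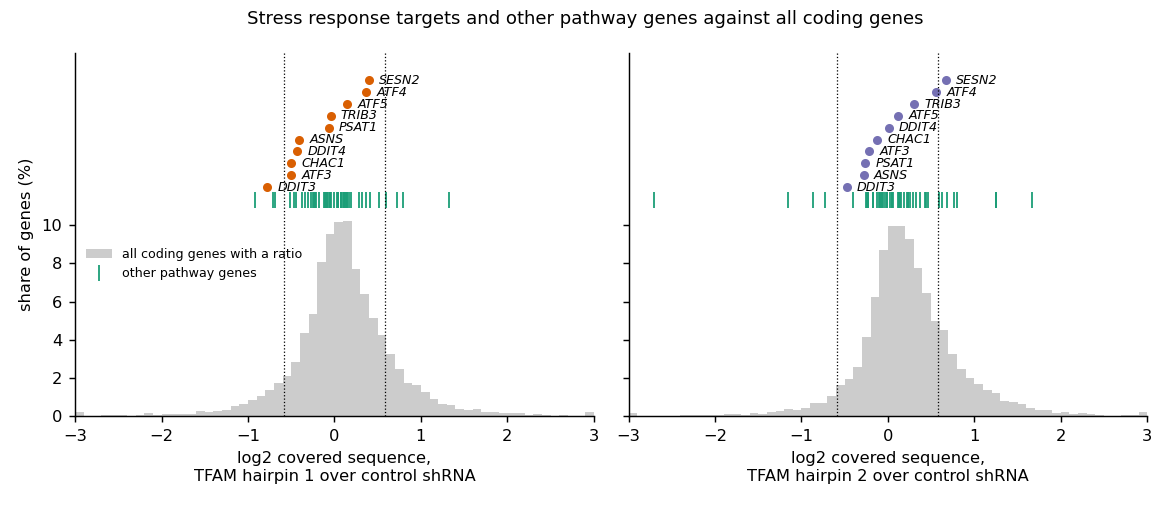
Distribution of the log2 ratio of covered sequence over control for hairpin 1 on the left and hairpin 2 on the right: grey bars give the share of all coding genes with a ratio in percent, with ratios past 3 in either direction placed at the edge, green ticks the other pathway genes and labelled points the 10 targets. Dotted lines mark 1.5-fold in each direction. In hairpin 1 DDIT3 alone is past a line and in hairpin 2 SESN2 alone.

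Away from the promoters, the windows held 9 peaks in hairpin 1, 8 in hairpin 2 and 9 in the control, in the windows of ATF4, ATF3, TRIB3, SESN2 and PSAT1. In each list 2 of these lay on the promoter of another coding gene, RPS19BP1 (a ribosomal protein S19 binding protein) 12186 bp from the ATF4 start site and RBCK1 (a ubiquitin ligase subunit) 27539 bp from that of TRIB3. Joined across lists they made 10 regions, 7 of them with a peak in every list within the window and 8 when peaks were not cut at the window's edge. Across the genome 49.9% of 33834 joined regions were in every list, 5.91% in both hairpins and not the control, and 7.05% in the control alone. Those genome-wide regions were joined from all peaks, promoter peaks included, so they are not matched to the 10 regions.

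The joined region that both hairpins had and the control lacked lay in TRIB3, upstream of its canonical start site and within an intron of a longer transcript. It ran from 344894 to 347463 in hairpin 1 (2570 bp) and from 343736 to 346841 in hairpin 2 (3106 bp) on chromosome 20. Both peaks were near the bottom of their lists by score, with percentiles of 2.64 in hairpin 1 and 0.818 in hairpin 2. The adjoining TRIB3 region, centred 7 to 8 kb before the start site, spanned 5759 bp in hairpin 1 and 6624 bp in hairpin 2, against 6983 bp in the control. The region 3′ of TRIB3 spanned 1171 bp in hairpin 1 and 2314 bp in hairpin 2, against 914 bp in the control.

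The region that the control alone had lay in an intron of ATF3, at 212769819 to 212770714 on chromosome 1. It was 896 bp wide and stood at score percentile 18.5 of the control list. The other ATF3 region, about 50 kb before the canonical start site and over non-coding transcripts, spanned 2024 bp in hairpin 1 and 2122 bp in hairpin 2, against 1904 bp in the control. It ranked above the ATF3 promoter peak in every list, with percentiles of 82.6 in hairpin 1, 91.8 in hairpin 2 and 98.3 in the control.

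In SESN2 the added sequence of hairpin 2 lay in a region inside the gene. Its peak spanned 3191 bp in hairpin 1 and 7295 bp in hairpin 2, against 1944 bp in the control, and in hairpin 2 98 bases separated it from the promoter peak, against 2683 in hairpin 1 and 4778 in the control. The score percentile was 43.4 in hairpin 1 and 22.6 in hairpin 2, against 45.0 in the control. A peak over ATP5IF1, the ATP synthase inhibitor, reached into the SESN2 window by 787 bp in hairpin 1 and 716 bp in the control, while the hairpin 2 peak there ended at 28575962, short of the window. In PSAT1 an intronic peak near the 3′ end of the gene spanned 764 bp in hairpin 1 and 1171 bp in hairpin 2, against 1101 bp in the control.

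**Figure D5:**
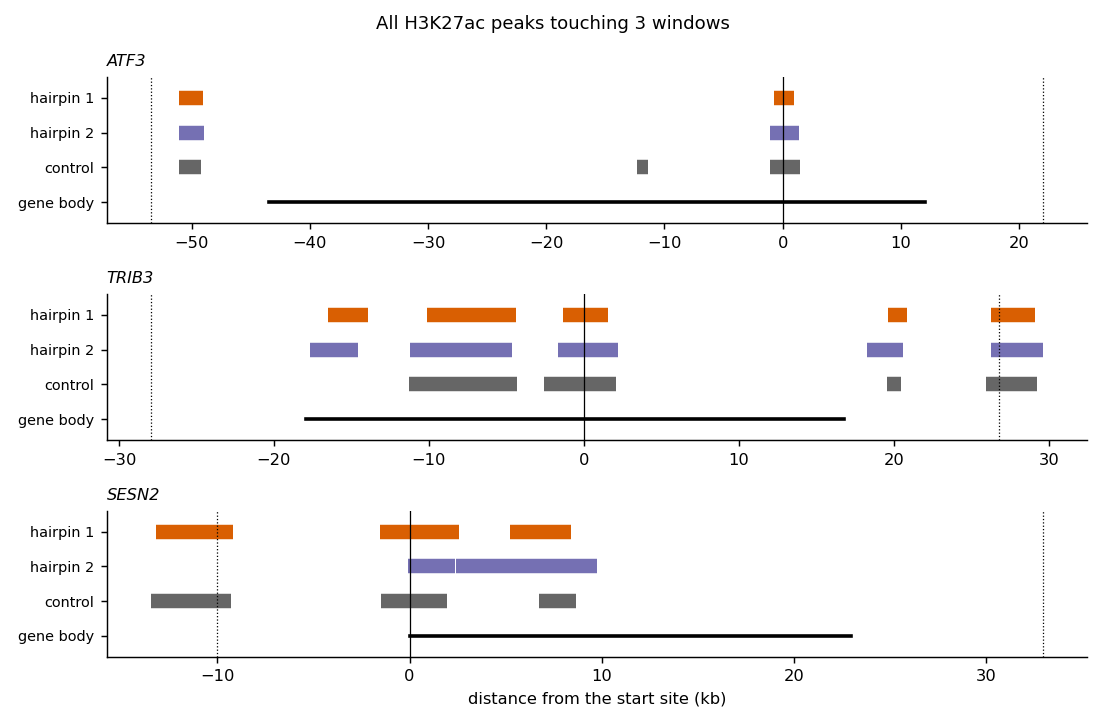
All H3K27ac peaks that touch the windows of ATF3, TRIB3 and SESN2, as distance from the start site in kb, with rows for hairpin 1, hairpin 2, control and the annotated gene body. Dotted lines are the window ends. The TRIB3 peak at 15 to 16 kb before the start site is in the hairpin rows, the ATF3 peak at about 12 kb before it is in the control row, and the hairpin 2 peaks of SESN2 nearly join.

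A list of 50 other genes of the pathway was read in the same way. A promoter peak was listed for 47 of them in hairpin 1, 45 in hairpin 2 and 47 in the control. The shares of all coding genes were 54.7%, 54.9% and 53.7%. In hairpin 1, 5 of 48 with covered sequence were called higher (10.4%) and 3 lower (6.25%), against 18.4% and 12.7% of all genes. In hairpin 2, 8 of 47 were called higher (17.0%) and 4 lower (8.51%), against 25.4% and 7.78%. The median log2 ratio was -0.01 in hairpin 1 and 0.06 in hairpin 2. Among the higher-scoring 50% of each list, 10 of 44 were called higher in hairpin 1 and 10 of 46 in hairpin 2, which is 22.7% and 21.7%, against 16.8% and 23.8% of all genes. The list's share of higher calls in hairpin 1 was thus under that of all genes with the full lists and over it with the higher-scoring 50%. With lists of equal length it was again under, at 10.4% against 18.0%.

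The counts of each group below stand beside the same shares of all genes. These were 18.4% called higher and 12.7% lower in hairpin 1, and 25.4% and 7.78% in hairpin 2. The 7 sensing genes had promoter peaks in every list, and 0 were called in hairpin 1 and 2 higher in hairpin 2, near the share of all genes. EIF2AK1 (HRI) had 10432 bp in hairpin 1 and 13250 bp in hairpin 2, against 8577 bp in the control, and was called higher in hairpin 2. EIF2AK3 (PERK, the kinase of endoplasmic reticulum stress) was called higher in hairpin 2 as well, with 8045, 10323 and 6443 bp in hairpin 1, hairpin 2 and control. DELE1 had 3033, 1977 and 2125 bp and OMA1 1952, 2220 and 1856 bp in the same libraries, none of them called against the control. Of the 8 genes of eIF2 and its exchange factor, 1 was called higher and 1 lower in hairpin 1, and 1 higher and 0 lower in hairpin 2. EIF2B3, an exchange factor subunit, was the one called higher in both, with 8798 bp in hairpin 1 and 12630 bp in hairpin 2, against 5318 bp in the control. Its own promoter peak spanned 3863 bp in hairpin 1 and 3595 bp in hairpin 2, against 2482 bp in the control, and the rest of the covered sequence lay elsewhere in the window.

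Among 9 enzymes of amino acid and one-carbon metabolism, 2 were called higher and 1 lower in hairpin 1, and 2 higher and 0 lower in hairpin 2. ALDH18A1, an enzyme of proline synthesis, was called higher in both, with 3949 bp in hairpin 1 and 3765 bp in hairpin 2, against 1577 bp in the control. Its promoter peak spanned 1770, 1897 and 1577 bp in hairpin 1, hairpin 2 and control, and the rest of the covered sequence lay elsewhere in the window. Among 7 amino acid transporters, 0 were called higher and 1 lower in hairpin 1, and 1 higher and 1 lower in hairpin 2. SLC7A11, the cystine importer, was called lower in both, with 4196 bp in hairpin 1 and 3779 bp in hairpin 2, against 6893 bp in the control, all of it in the promoter peak. SLC1A4, a neutral amino acid transporter, had 3515, 8368 and 2643 bp and SLC7A5, a leucine importer, 6933, 7215 and 5362 bp in hairpin 1, hairpin 2 and control, SLC1A4 being called higher in hairpin 2.

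The remaining genes ran both ways. Of the 5 other induced genes, 0 were called in hairpin 1 and 2 were called lower in hairpin 2. XPOT, the tRNA exporter, had 9255, 7226 and 11994 bp in hairpin 1, hairpin 2 and control, with TBK1 also under a peak in its window. STC2, a secreted glycoprotein, had 3579, 2037 and 4539 bp, and its promoter peak was listed in hairpin 1 and the control at score percentile 25.9 and 6.66. PMAIP1 (the death protein NOXA) had 2602, 3108 and 3710 bp, and none of the 3 death genes was called. Of the 5 partner factors, 2 were called higher in hairpin 1 and 1 lower in hairpin 2. JDP2, a factor of the same bZIP class, went opposite ways, with 5677 bp in hairpin 1 and 504 bp in hairpin 2, against 3280 bp in the control. Of the 2 reset genes, 0 were called in hairpin 1 and 1 was called higher in hairpin 2. That gene, PPP1R15B, had a promoter peak in every list, with 4259, 7044 and 4140 bp in hairpin 1, hairpin 2 and control. PPP1R15A, which resets eIF2, had no peak in its window in any list, and neither had VLDLR. The secreted stress signals FGF21 and GDF15 had a promoter peak in every list. FGF21 had 4979, 7242 and 4822 bp in hairpin 1, hairpin 2 and control. It was called higher in hairpin 2 at a ratio of 1.502, barely past the threshold of 1.5-fold.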

How the data were processed

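H3K27ac peak lists of 3 K562 libraries were used. Per the labels' protocols, reads with a single place in hg19 were kept; the submitters' processing notes list Bowtie 0.12.7 and Picard but do not say what each did. The peak names carry a MACS prefix, per the deposited files; the sources used here give no version, threshold or use of the input for the caller. The deposited score of each peak, 50 or more in each list, is the authors' own and served to rank peaks inside their own list. Depth is unknown.

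GENCODE release 44, lifted to the files' build GRCh37, gave the genes; each start site is the canonical transcript's, or the gene's 5′ end in 292 of 20175 coding genes, DDIT4 among them. A peak counted at a minimum overlap of 1 bp. Covered base pairs were summed per window and called at 1.5-fold. Positions are 1-based. The 10 genes and the pathway list were chosen with earlier results of these data known. Named pathway genes are the 4 highest and 4 lowest by the smaller log2 ratio where both hairpins moved one way. Others were chosen after their values were seen: EIF2AK1, EIF2AK3, DELE1, OMA1, JDP2, PPP1R15A, PPP1R15B, VLDLR, ATP5IF1, FGF21 and GDF15. One item that the rule names is not reported here. The overlap and call code was tested on simulated data. Alternatives were other list lengths, windows, start sites and folds. Python 3.11.15, numpy 2.4.6, pandas 2.3.3 and matplotlib 3.10.9 were used.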

Additional observations from a re-analysis of the deposited data

How the results depend on the processing

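No paired analysis was possible because each condition has 1 library. Of 80 counts under the alternatives, 52 kept within 1.5 times the count reported, and targets with a promoter peak did so throughout, at 8 to 10 of 10. In the higher-scoring 50% of each list, 2 targets were called higher in hairpin 1 (TRIB3 and DDIT4) and 1 lower (DDIT3), against 16.8% and 11.5% of all genes. In hairpin 2, 1 was called higher (DDIT4) and 1 lower (SESN2), against 23.8% and 7.52%. DDIT4 was thus called higher in both hairpins, because its only peak was left out of the control list alone. That peak stood at score percentile 41.6 in the control, against 53.7 in hairpin 1 and 59.7 in hairpin 2. SESN2 reversed in hairpin 2 in this setting, to a log2 ratio of -0.78. Its peak inside the gene was left out in both hairpin 2 and the control, at score percentiles of 22.6 and 45.0. The promoter peaks were kept, and their widths alone gave a log2 ratio of -0.50. The control also kept 716 bp of the peak over ATP5IF1, which stood at percentile 50.4. In hairpin 2 the peak there ended short of the window. Pathway genes were then 10 higher and 1 lower in hairpin 1 and 10 higher and 2 lower in hairpin 2, and 5, 3 and 4 distal peaks were left in hairpin 1, hairpin 2 and control. With 5 kb on each side of the gene body, 2 targets (ATF3 and DDIT3) were called lower in hairpin 1 (all genes 12.5%) and 2 (ATF4 and SESN2) higher in hairpin 2 (24.6%), where 5 pathway genes were higher. With 25 kb on each side, hairpin 1 had 1 target higher (CHAC1, all genes 17.9%) and 0 lower (12.4%), hairpin 2 had 0 higher (25.6%), and there were 23, 22 and 19 distal peaks. Within 5 kb of the start site, 2 targets were lower in hairpin 1 (all genes 8.89%), and 2 and 1 pathway genes were higher in hairpin 1 and hairpin 2 (14.6% and 17.4%). At 2-fold, 0 targets were called, against 9.50% of all genes higher and 7.79% lower in hairpin 1 and 13.5% and 4.85% in hairpin 2; pathway genes were 2 higher and 0 lower in hairpin 1 and 3 higher and 2 lower in hairpin 2. Lists of equal length moved no count by over 1.5 times. Of 116 log2 ratios of targets, 12 took the other sign: 5 with the higher-scoring 50%, 5 with 25 kb on each side and 2 within 5 kb of the start site, among them CHAC1 in hairpin 1 (0.60 with 25 kb) and TRIB3 in hairpin 1 (0.75 with the higher-scoring 50%). The bare start-site window of DDIT3 was tried in settings chosen after seeing the data: the count stayed at 1 in both trimmed lists, and from 500 bases before to 100 after the start site it was 0, since that window reaches the hairpin peaks. The wider window held TGATGNAA in 5 targets instead of 3. The causes of the other shifts were not tested, and unknown depth limits what an absent peak can show.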
